A study of Mus musculus with 7 samples.

Results

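The Cyp2c genes encode cytochrome P450 enzymes of subfamily 2C, and 10 of them were followed here through maps of nuclease-accessible chromatin in mouse liver: Cyp2c29, Cyp2c37, Cyp2c38, Cyp2c39, Cyp2c40, Cyp2c44, Cyp2c50, Cyp2c54, Cyp2c55 and Cyp2c70. They were taken from a fixed list, and are 10 of 22365 genes with protein-coding transcripts outside the mitochondrial genome. A window was drawn over each gene body and 20 kb on either side, and every hotspot touching a window was kept. A hotspot is a stretch of the genome where sequenced nuclease cut fragments were called as enriched. The windows together covered 801 kb of chromosome 19 and held 119 of 190871 hotspots, which merged, wherever hotspots overlapped by at least 1 bp, into 60 of 94491 regions.

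The livers came from male C57BL/6 mice of 8 weeks, untreated as far as the labels say. Benzonase and Cyanase, endonucleases that cut DNA, were applied at 0.25, 1 and 4 U to chromatin of pulverized frozen liver, with 3 samples each. DNase I was applied to nuclei isolated from fresh liver, for which the labels give 1 sample and the list names a pool of 2 libraries. Only a pooled list was used per nuclease, so no spread between samples exists, no difference below has a test, and enzyme, tissue handling and depth cannot be told apart.

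Cytochromes P450 are membrane-bound haem enzymes that oxidize drugs, steroids, bile acids and fatty acids, taking electrons from the reductase Por. Hepatocytes make them in large amounts. The Cyp2c genes arose by repeated duplication, most of them lie next to one another in the genome, and several are induced through the nuclear receptors CAR and PXR. In mouse liver their products include epoxygenases and hydroxylases of arachidonic and linoleic acid and an enzyme of bile acid synthesis.

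The promoters show how alike some of these copies are. The 160 bases before the reference start site (mm9, chromosome 19, written along the gene from 5′ to 3′) are given for the 3 closest copies, for the copies Cyp2c38 and Cyp2c39, for Cyp2c70, and for Cyp2c44 and Cyp2c55, the only listed genes where DNase I alone marked the start site. Capitals mark matches to any of 5 motifs searched on both strands, which are named below.
Cyp2c37: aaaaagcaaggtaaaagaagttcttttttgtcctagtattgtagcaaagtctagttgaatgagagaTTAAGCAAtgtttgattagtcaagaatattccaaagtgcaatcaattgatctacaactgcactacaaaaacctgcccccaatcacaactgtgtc
Cyp2c50: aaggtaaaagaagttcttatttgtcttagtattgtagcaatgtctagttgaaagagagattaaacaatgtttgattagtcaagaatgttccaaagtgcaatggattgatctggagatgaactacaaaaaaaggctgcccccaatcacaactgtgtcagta
Cyp2c54: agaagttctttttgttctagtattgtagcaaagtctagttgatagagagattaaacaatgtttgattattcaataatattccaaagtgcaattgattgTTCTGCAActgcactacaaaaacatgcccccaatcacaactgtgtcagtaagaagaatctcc
Cyp2c38: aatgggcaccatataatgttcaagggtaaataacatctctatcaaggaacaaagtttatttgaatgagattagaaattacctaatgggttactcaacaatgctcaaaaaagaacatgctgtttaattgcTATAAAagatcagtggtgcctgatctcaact
Cyp2c39: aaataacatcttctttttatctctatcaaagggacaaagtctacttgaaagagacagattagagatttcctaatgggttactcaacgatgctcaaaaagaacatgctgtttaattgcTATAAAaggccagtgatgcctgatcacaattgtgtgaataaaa
Cyp2c70: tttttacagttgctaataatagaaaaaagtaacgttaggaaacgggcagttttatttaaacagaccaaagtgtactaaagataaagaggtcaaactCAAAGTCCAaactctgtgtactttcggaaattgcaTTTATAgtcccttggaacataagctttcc
Cyp2c44: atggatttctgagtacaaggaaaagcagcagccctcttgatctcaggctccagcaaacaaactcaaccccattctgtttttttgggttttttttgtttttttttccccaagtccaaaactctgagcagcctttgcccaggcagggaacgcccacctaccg
Cyp2c55: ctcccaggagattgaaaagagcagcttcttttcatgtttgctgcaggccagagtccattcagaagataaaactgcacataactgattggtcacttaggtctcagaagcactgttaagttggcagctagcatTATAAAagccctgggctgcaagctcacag

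These stretches lie at chr19:40066754-40066913 (Cyp2c37, plus strand), chr19:40164018-40164177 (Cyp2c50, plus), chr19:40148302-40148461 (Cyp2c54, minus), chr19:39537566-39537725 (Cyp2c38, minus), chr19:39585192-39585351 (Cyp2c39, plus), chr19:40261777-40261936 (Cyp2c70, minus), chr19:44103738-44103897 (Cyp2c44, minus) and chr19:39081349-39081508 (Cyp2c55, plus). Over the 250 bases before the start site, Cyp2c37 and Cyp2c50 were 87.2% identical, Cyp2c50 and Cyp2c54 85.6%, and Cyp2c37 and Cyp2c54 84.8%. Cyp2c38 and Cyp2c39 shared 80.0% and Cyp2c29 and Cyp2c39 79.2%. The median over all 45 pairs was 60.8% and the lowest pair shared 55.6%. The promoter of Cyp2c55 was not set apart by identity: it reached 63.6% with Cyp2c37, while Cyp2c70, which all 3 nucleases marked, reached at most 60.8%. Cyp2c44 reached at most 60.0%, with Cyp2c54, the lowest best match among the 10 genes. GC content from 250 bases before to 50 bases after the start site was 43% in Cyp2c44 and 44.7% in Cyp2c55. This was above that of the other 8 (30.3% to 38.3%).

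The motifs were searched from 250 bases before to 50 bases after the start site. TATAAA, the TATA box core that positions transcription initiation, was found at 6 of the 10 genes (Cyp2c29, Cyp2c38, Cyp2c39, Cyp2c40, Cyp2c55 and Cyp2c70) and at 13.7% of 22360 promoters of the annotation. Its first base lay at -45 in Cyp2c29, -43 in Cyp2c39, -31 in Cyp2c38, -29 in Cyp2c55 and -29 in Cyp2c70, where it was on the other strand, and it lay after the start site in Cyp2c40. TGGACTTTG, a sequence of the type bound by HNF4, a nuclear receptor of hepatocytes, occurred on the opposite strand at -45 in Cyp2c40 and at -64 in Cyp2c70, against 0.470% of all promoters. TTNNGCAA, of the C/EBP type, was present in Cyp2c37, Cyp2c40 and Cyp2c54 (10.2% of promoters), and TGTTTAC, of the FOXA type, in Cyp2c38 and Cyp2c39, upstream of the printed bases (3.02% of promoters). GTTAATNAT, of the HNF1 type, was found at 0 of the 10 and at 0.657% of promoters. None of the matches at these genes overlapped another motif.

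All 10 genes had a start site inside a DNase I hotspot, against a background of 47.4% of genes. Benzonase marked 8 of 10 (background 57.4%) and Cyanase the same 8 (background 55.7%), so 8 genes carried hotspots of all 3 nucleases (background 46.1%). Without the hotspots in the narrowest quartile of each list, the counts were 5 for Benzonase, 5 for Cyanase and 8 for DNase I, and Cyp2c37 and Cyp2c40 were then marked in none of the lists. In the full lists the other 2, Cyp2c44 and Cyp2c55, were marked by DNase I alone, a state found at 0.867% of genes. With 10 genes these shares are loose: 8 of 10 has a 95% Wilson interval of 49.0% to 94.3%, and 2 of 10 one of 5.67% to 51.0%, both for counting error only. Scored in the same way, the 5 Serpina1 genes gave 5 for DNase I, 4 for Benzonase and 4 for Cyanase. The 9 Cyp3a genes, of another P450 family, gave 5, 7 and 9 in the same order.

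**Figure D1:**
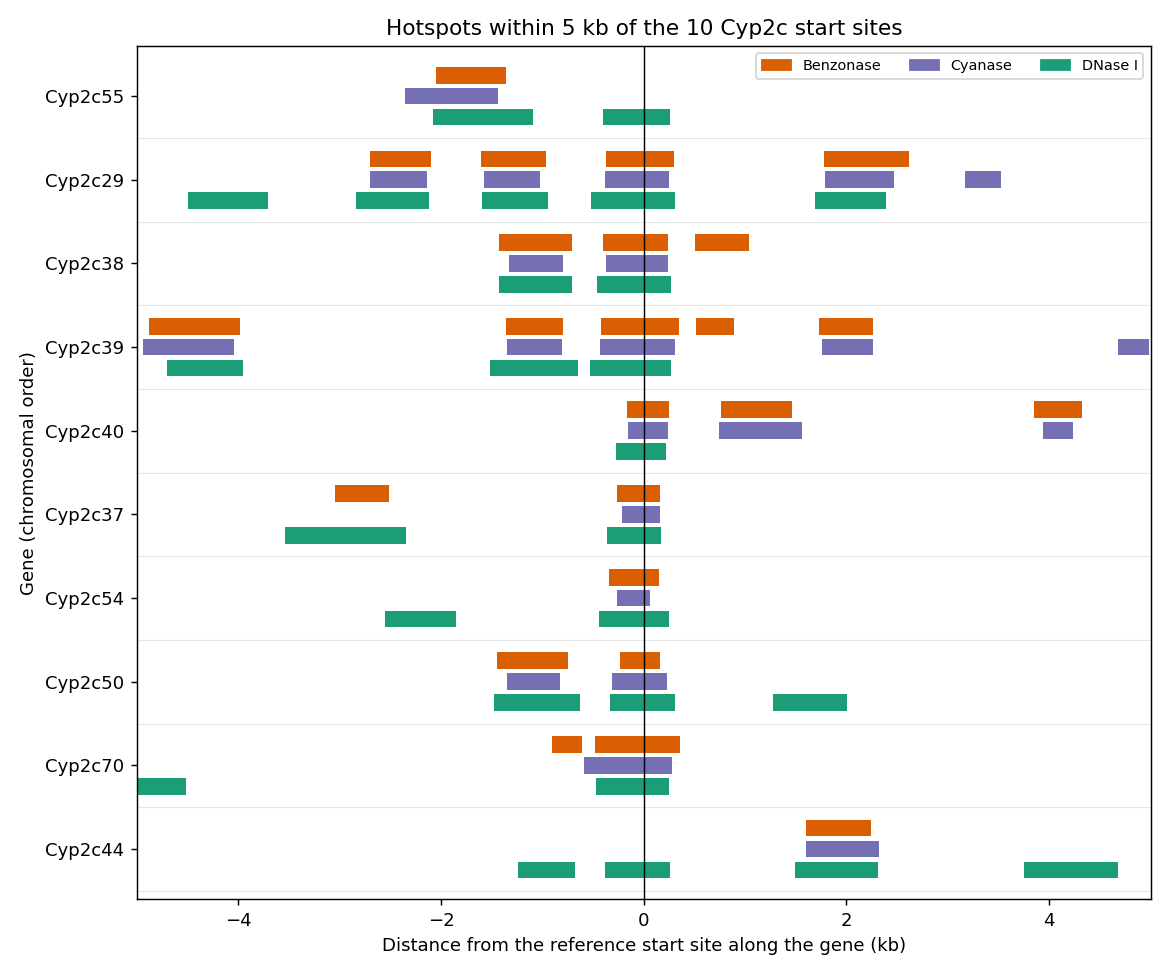
Hotspots of Benzonase, Cyanase and DNase I within 5 kb of the reference start site of each of the 10 genes, drawn to scale along the gene in kb, with 0 at the start site. The 3 colours overlap the start site in 8 genes and DNase I alone does in Cyp2c44 and Cyp2c55.

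At the 8 start sites marked by all 3, the DNase I hotspot was the widest at 7 and the Cyanase hotspot at 1, Cyp2c70. Median widths were 704 bp for DNase I (498 to 830 bp), 574 bp for Benzonase (398 to 842 bp) and 580 bp for Cyanase (326 to 875 bp). DNase I reached farthest upstream at 7 of the 8, with a median of 451 bp before the start site, against 357.5 bp for Benzonase and 344.5 bp for Cyanase. On the transcribed side the medians were close, at 259.5, 246.5 and 241.5 bp in the same order, and DNase I reached farthest at 5 of the 8. The extra width of the DNase I calls lay more on the upstream side.

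Across the wider windows the pattern was similar, but it is not a separate observation, because the windows include those start sites. Of 26 regions with exactly 1 hotspot from each list, DNase I was the widest in 18, or 69.2%. The 8 start sites are among the 26 and gave 7 of the 18. Over 33922 such regions of the genome it was the widest in 43.1%, Benzonase in 41.0% and Cyanase in 15.8%. The medians in the windows were 722 bp for DNase I, 658.5 bp for Benzonase and 620 bp for Cyanase, and in the genome 746, 761 and 720 bp. Which of depth, handling and enzyme moves with these widths was not tested.

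Cyp2c29, whose product makes epoxides of arachidonic acid, spans 39315441 to 39405189 on the plus strand and has 2 annotated start sites. The reference site, at 39361601, lay inside hotspots of DNase I (39361080 to 39361909), Cyanase (39361219 to 39361846) and Benzonase (39361231 to 39361899). The other site, at the annotated gene start, was outside the hotspots of all 3 lists. Its window held 13 regions, the most of any of the 10, with 4 Benzonase, 6 Cyanase and 12 DNase I hotspots. Common regions lay on either side of the reference site: one upstream at 39359995 to 39360658, another at 39358761 to 39359506, and the widest of the window, 928 bp, inside the gene at 39363294 to 39364221. In the annotated body 4 regions came from a single list, of which the widest were a DNase I hotspot of 788 bp at 39357106 to 39357893, another of 376 bp at 39338400 to 39338775, and a Cyanase hotspot of 350 bp at 39364772 to 39365121. Only 3.99% of the 32-base sequences in the 376 bp hotspot occurred once in the genome.

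Cyp2c38, another arachidonic acid epoxygenase, spans 39464046 to 39537565 on the minus strand. DNase I (39537296 to 39538030), Benzonase (39537321 to 39537968) and Cyanase (39537325 to 39537936) marked its start site with bounds that differed by less than 100 bp at either end. A common region stood upstream at 39538271 to 39538992, or -1427 to -706 from the start site. In an intron a Benzonase hotspot of 534 bp stood at 39536530 to 39537063. The remaining 72.5 kb of the body held no hotspot in any list.

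Cyp2c39, known as a retinoic acid hydroxylase, spans 39585352 to 39643019 on the plus strand. Its start site lay in hotspots of DNase I (39584821 to 39585623), Cyanase (39584922 to 39585658) and Benzonase (39584930 to 39585695). The upstream common region ran from -1522 to -651, and the widest region of the window, 987 bp, stood farther out at 39580410 to 39581396. Inside the gene were 3 regions without DNase I: a Benzonase hotspot of 383 bp at 39585865 to 39586247, one of 534 bp called by Benzonase and Cyanase at 39587085 to 39587618, and a Cyanase hotspot of 314 bp at 39590028 to 39590341. Cyp2c39 was the gene with the most regions of this class, 3 of the 9 found.

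Cyp2c40, which hydroxylates arachidonic acid, spans 39841561 to 39887304 on the minus strand. Its promoter hotspots were among the narrowest, with 413 bp for Benzonase (39887055 to 39887467), 396 bp for Cyanase (39887061 to 39887456) and 498 bp for DNase I (39887082 to 39887579). Intronic sequence of the gene carried 2 regions called by Benzonase and Cyanase and not by DNase I, at 39885745 to 39886557 and 39882978 to 39883458. The widest region, 822 bp, lay beyond the 3′ end of the gene at 39826482 to 39827303 and was called by Benzonase and DNase I. The rest of the body, 41.4 kb, held no hotspot in any list.

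Cyp2c37, Cyp2c50 and Cyp2c54 encode closely related enzymes that oxidize linoleic and arachidonic acid, and their windows partly overlap. Cyp2c37 (40066909 to 40086738, plus strand) was marked by DNase I (40066555 to 40067088), Benzonase (40066651 to 40067073) and Cyanase (40066704 to 40067075), and the 19.65 kb of body beyond held no hotspot. Its widest region, 1196 bp at 40063374 to 40064569, was called by DNase I and, over 535 bp, by Benzonase. Cyp2c54 (40112431 to 40148301, minus strand) was marked by DNase I (40148052 to 40148738), Benzonase (40148147 to 40148646) and, over only 326 bp, Cyanase (40148239 to 40148564). DNase I alone called a further 697 bp at 40150155 to 40150851, upstream, and 660 bp in an intron at 40117071 to 40117730.

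Cyp2c50 (40164178 to 40188440, plus strand) was marked by DNase I (40163841 to 40164483), Cyanase (40163860 to 40164407) and Benzonase (40163939 to 40164336). Its upstream common region, 855 bp at 40162696 to 40163550, was the widest of the window and, because the windows overlap, also of that of Cyp2c54. A DNase I hotspot of 738 bp over an exon, at 40165451 to 40166188, was the only other region of the body. The bodies of Cyp2c37, Cyp2c50 and Cyp2c54 held only 1, 2 and 2 regions, none called by Benzonase or Cyanase without DNase I. That class made up 26.3% of the regions of the genome, and so few regions cannot show a difference from it.

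Cyp2c70 makes muricholic acids, the bile acids typical of mice, and spans 40227843 to 40261823 on the minus strand. Its promoter hotspots were the exception in order of width, with 875 bp for Cyanase (40261495 to 40262369), 842 bp for Benzonase (40261418 to 40262259) and 721 bp for DNase I (40261526 to 40262246). Just upstream Benzonase alone called 297 bp at 40262389 to 40262685, the narrowest promoter-side hotspot. A common region of 622 bp stood in an intron at 40242731 to 40243352, with 50.8% GC where its 5 kb flanks had 37.6%, the highest contrast among the 60 regions.

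Cyp2c55, induced by drugs acting on CAR and PXR, spans 39081509 to 39117183 on the plus strand, at the other end of the cluster. DNase I alone marked its start site, at 39081106 to 39081772. The nearest Benzonase hotspot ended 1362 bp away and the nearest Cyanase hotspot 1439 bp away, both in the widest region of the window, which spans 39079155 to 39080417 and holds all 3 nucleases. The 35.4 kb of body after the promoter held no hotspot.

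Cyp2c44, an arachidonic acid epoxygenase, spans 44079512 to 44103737 on the minus strand and lies apart from the other 9, between Cpn1 and Erlin1. DNase I alone marked its start site (44103474 to 44104116) and the stretch upstream of it (44104414 to 44104982). Benzonase and Cyanase hotspots began 1603 bp away, inside the gene, in a common region at 44101417 to 44102240. A further common region covered an exon at 44095761 to 44096645, and DNase I alone called 926 bp of intron at 44099056 to 44099981. The widest region of all 60, 2088 bp at 44059393 to 44061480, covered the start site of Cpn1 and was common. Within 500 bp of the Cyp2c44 start site 100% of the 32-base sequences occurred once in the genome.

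**Figure D2:**
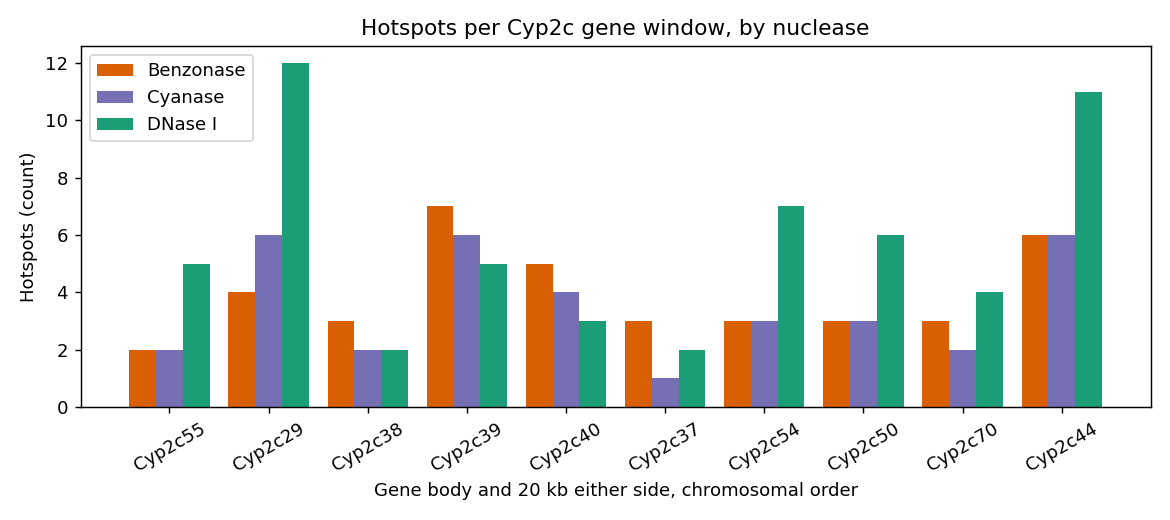
Number of hotspots per gene window (gene body and 20 kb either side) for Benzonase, Cyanase and DNase I, with genes in chromosomal order and the count axis from 0. DNase I counts reach 12 at Cyp2c29 and 11 at Cyp2c44, while Cyp2c39 has 7 Benzonase, 6 Cyanase and 5 DNase I hotspots.

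The genes differed in which list called more. DNase I had the most hotspots at Cyp2c29, Cyp2c44, Cyp2c50, Cyp2c54, Cyp2c55 and Cyp2c70, and Benzonase at Cyp2c37, Cyp2c38, Cyp2c39 and Cyp2c40. In all, the windows held 51 DNase I, 36 Benzonase and 32 Cyanase hotspots, covering 4.56%, 2.78% and 2.44% of their length. Per Mb this was 63.6, 44.9 and 39.9 hotspots, against 40.4, 34.9 and 33.2 per Mb over chromosome 19. Merged regions stood at 74.9 per Mb in the windows and 50.5 per Mb on the chromosome.

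Of the 60 regions, 30 were common to DNase I and at least 1 of the other nucleases, or 50% (95% Wilson interval 37.7% to 62.3%, background 45.4%). DNase I alone called 21, or 35% (24.2% to 47.6%, background 28.3%). Benzonase or Cyanase without DNase I called 9, or 15% (8.10% to 26.1%, background 26.3%). The first 2 intervals hold the genome's share, and the third ends just under it, at 26.1% against 26.3%. The intervals are for counting error only and treat regions as separate draws, which neighbouring and duplicated regions are not. They are therefore no test against the genome. With windows of 5 kb the third share was 19.05% of 42 regions. The Cyp3a windows, another P450 family, held 41 regions with 9.76% DNase I unique and 22.0% Benzonase-Cyanase unique, and those of the Serpina1 genes 33 regions with 24.2% and 15.2%.

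By position, the promoters (start site or 2 kb upstream of a listed gene) held 18 regions, of which 13 were common, 4 DNase I unique and 1 Benzonase-Cyanase unique. Elsewhere the 42 regions were 17, 17 and 8. Benzonase hotspots were present in 77.8% of the promoter regions (54.8% to 91.0%) and 52.4% of the others (37.7% to 66.6%). For Cyanase the shares were 72.2% and 45.2%, and for DNase I 94.4% and 81.0%. Over all merged regions of the genome 62.9% held a Benzonase hotspot, 58.9% a Cyanase hotspot and 73.7% a DNase I hotspot. These genome shares are over regions at any position, so they are no background for promoter regions alone. No genome share for promoter regions is given here. Of the 9 Benzonase-Cyanase unique regions 7 were intronic, 1 was upstream of Cyp2c70 and 1 was outside genes. DNase I unique regions were spread more widely, with 2 at start sites, 2 upstream, 2 on exons, 6 in introns and 9 outside genes.

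Common regions also stood within 2 kb upstream of 5 start sites. The share of all genes with such a region is not given here, so the count describes these genes only. They ran from -1606 to -943 in Cyp2c29, -1427 to -706 in Cyp2c38, -1522 to -651 in Cyp2c39, -1482 to -628 in Cyp2c50 and, reaching beyond 2 kb, -2354 to -1092 in Cyp2c55. Aligned over the shorter region, Cyp2c38 and Cyp2c39 were 93.8% identical, Cyp2c29 and Cyp2c39 77.0% and Cyp2c29 and Cyp2c38 76.2%. The comparison also took in the upstream regions of Cyp2c44 and Cyp2c54, which were DNase I unique, and of Cyp2c70, which was Benzonase-Cyanase unique. The other 25 of its 28 pairs reached at most 64.3%. The region at Cyp2c50 was 62.6% identical to that at Cyp2c38, and the region at Cyp2c55 64.3%. Both belong to those other pairs, and the second is the highest of them.

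The classes differed in width and base composition. Merged regions had a median width of 765 bp when common, 646 bp when DNase I unique and 481 bp when Benzonase-Cyanase unique, where a common region joins the hotspots of several lists. GC content averaged 44.8% ± 4.25 (SD, n = 9 regions) where Benzonase or Cyanase called without DNase I, 40.1% ± 5.31 (n = 30) in common and 40.1% ± 4.59 (n = 21) in DNase I unique regions. Relative to flanks of 5 kb, the Benzonase-Cyanase unique regions were higher by 5.80 percentage points (SD 4.10) and higher in 8 of 9, the exception being the intronic region at 39587085 of Cyp2c39. Common regions differed from their flanks by 0.681 points (SD 4.27, 14 of 30 higher) and DNase I unique regions by -0.627 points (SD 3.10, 9 of 21 higher). Regions are not replicates and 5 of the 9 lie in introns of Cyp2c39 and Cyp2c40, so the spread describes these regions only.

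**Figure D3:**
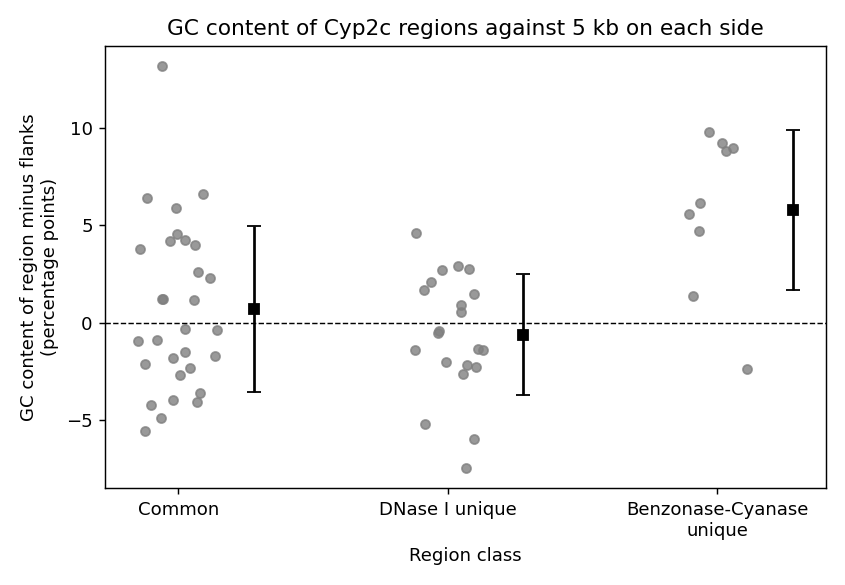
GC content of each of the 60 regions minus that of the 5 kb on each side, in percentage points, by region class. Grey points are regions, and black squares with bars are the mean and SD; 8 of 9 Benzonase-Cyanase unique regions lie above 0, with a mean of 5.80.

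Repeated sequence limits where tags can be placed, because only uniquely aligning tags were counted. The shares below count any repeat in the genome and do not separate copies of Cyp2c genes from other repeats. In the windows 63.7% of positions had a 32-base sequence found once in the genome, against 87.3% of positions sampled along chromosome 19, 55.5% in the Cyp3a windows and 42.4% in the Serpina1 windows. Inside the merged regions the share was 85.1%. Among the bodies of the 10 genes it was lowest for Cyp2c40, at 37.5%, and highest for Cyp2c44, at 90.8%, while the body of Cyp2c68, not among the 10, had 36.3%. Stretches without a hotspot in the bodies of Cyp2c38 (57.5%) and Cyp2c40 include many positions with a repeated 32-base sequence, and whether their chromatin is closed cannot be told from the lists.

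**Figure D4:**
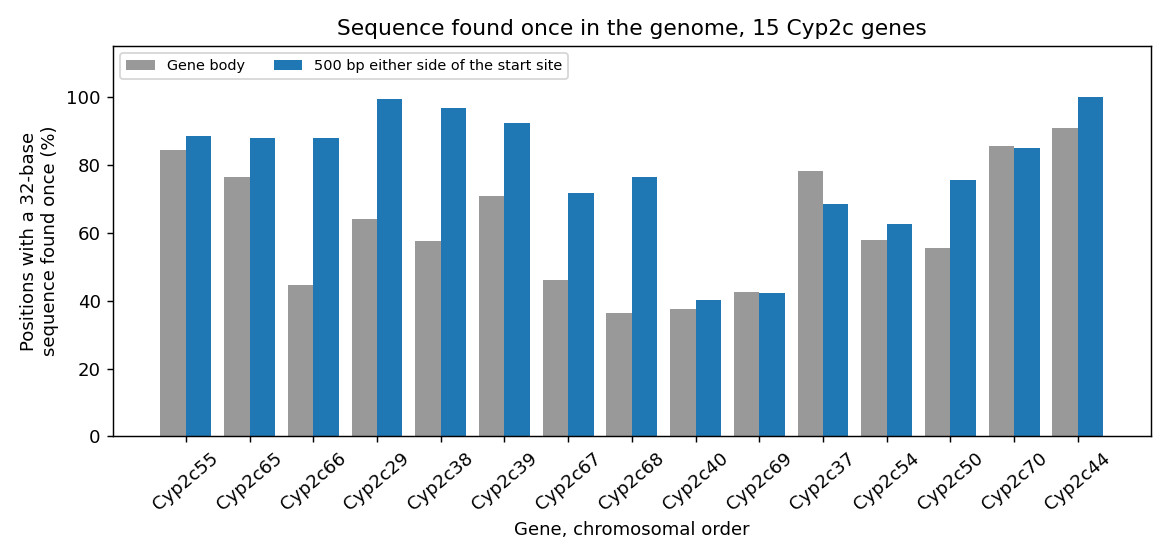
Percent of positions whose 32-base sequence occurs once in the genome, for the body (grey) and the 500 bp either side of the start site (blue) of 15 Cyp2c genes in chromosomal order. Cyp2c40 has 37.5% and 40.3%, and Cyp2c44 has 90.8% and 100%.

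Promoter hotspot width was set beside the uniqueness of the sequence. At Cyp2c37, Cyp2c40, Cyp2c50 and Cyp2c54, with 68.4%, 40.3%, 75.5% and 62.5% unique within 500 bp of the start site, Benzonase hotspots measured 398 to 500 bp and Cyanase hotspots 326 to 548 bp. At Cyp2c29, Cyp2c38, Cyp2c39 and Cyp2c70, with 99.3%, 96.6%, 92.4% and 85.0%, they measured 648 to 842 bp and 612 to 875 bp. No cut in unique share was set beforehand, so these groups only describe the genes named. For DNase I the ranges were 498 to 687 bp and 721 to 830 bp, but Cyp2c44 (643 bp, 100%) and Cyp2c55 (667 bp, 88.5%) were narrow in unique sequence. Within each group the lists differed. For Benzonase, Cyp2c50 had the narrowest hotspot of its group at the highest unique share, and Cyp2c70 the widest at the lowest. For Cyanase, Cyp2c50 (548 bp) and Cyp2c70 (875 bp) were each the widest of their group. For DNase I, Cyp2c29 (830 bp) was the widest of its group at the highest unique share. Cyp2c70 (721 bp) and Cyp2c40 (498 bp), with the lowest unique shares, had the narrowest DNase I hotspots of their groups. Cyp2c37, Cyp2c50 and Cyp2c54 are also the near-identical copies, so they are not separate examples. The part of sequence repetition in these widths was not tested.

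Of the 5 other Cyp2c genes of the cluster, Cyp2c67 and Cyp2c68 had a start site in hotspots of all 3 nucleases and Cyp2c69 in a DNase I hotspot only. The start sites of Cyp2c65 and Cyp2c66 lay outside the hotspots of all 3 lists, with the nearest DNase I hotspot 2511 and 4901 bp away and the nearest Benzonase hotspot 55358 and 60366 bp away. Both had unique sequence at the start site (87.9% and 88.0%). Near Cyp2c69, where 42.2% was unique, the closest Benzonase hotspot was 849 bp away.

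Among 30 genes of the P450 system chosen for comparison, 22 had a start site in hotspots of all 3 nucleases (46.1% of all genes) and 3 (Cyp2d11, Cyp2g1 and Cyp2s1) in none. Por, Cyb5 and Cyb5r3, which pass electrons to P450s, and the receptors Nr1i2 (PXR), Nr1i3 (CAR), Hnf4a and Rxra all carried hotspots of the 3 nucleases. Cyp2d9 was the only gene of the 30 marked by DNase I alone (0.867% of all genes). Cyp2a4, Cyp2b9 and Cyp2j9 were marked by Benzonase and Cyanase but not by DNase I, and Cyp2b13 by Cyanase alone. Over all genes Benzonase marked 57.4%, Cyanase 55.7% and DNase I 47.4%. The shares of all genes marked without DNase I or in none of the lists are not given here. Those counts therefore describe the named genes only.

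Start sites of liver cell type markers were counted in the same way. Over all genes the shares were 57.4% for Benzonase, 55.7% for Cyanase, 47.4% for DNase I and 46.1% for all 3. With 3 to 5 markers per set these counts are loose. All 5 hepatocyte markers had a start site in hotspots of the 3 nucleases. Of 5 Kupffer cell and macrophage markers DNase I marked 5, Benzonase 1 and Cyanase 1. Of 4 stellate cell markers Benzonase marked 3, Cyanase 4 and DNase I 0, and of 4 endothelial markers 1, 1 and 0. Bile duct markers were marked 2, 1 and 1 times of 4, and lymphocyte markers 0 times of 3 in each list. The 4 genes listed as absent from liver (Neurod1, Myod1, Gfap and Ins2) were marked 0, 1 and 0 times, the 1 being Gfap. Whether these 4 are silent in the livers used was not measured. The part of these cell types in the Cyp2c results was not tested.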

How the data were processed

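Accessible chromatin was measured in mouse liver after digestion with Benzonase, Cyanase or DNase I. The authors sequenced the fragments, aligned uniquely mapping tags to mm9 with Eland or Bowtie and called hotspots at an FDR of 0%, per the file headers with input adjustment, pooling 3 doses (Benzonase, Cyanase) or 2 libraries (DNase I). The deposited lists give hotspot coordinates alone, with no counts or scores, so the number of tags behind a hotspot is not given in them. Groups were taken from the labels.

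Hotspots were merged on an overlap of 1 bp (checked against bedtools 2.31.1 and on simulated lists) and placed on GENCODE M1 with Python 3.11.15, pandas 2.3.3 and Biopython 1.88. The reference start site was that of the protein-coding transcript with the lowest Ensembl number, and a gene counted as marked if any of its start sites lay in a hotspot. Alternatives were windows of 5 and 50 kb, joining within 150 bp, 50% reciprocal overlap, removal of the narrowest quartile, other promoter bounds and 24-base sequences. The 10 genes, the regions named (those at start sites, within 2 kb upstream, the widest per window and single-list regions in gene bodies) and all gene lists were chosen with earlier results of these data known.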

Additional observations from a re-analysis of the deposited data

How the results depend on the processing

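Of 60 recomputed values 58 stayed within their limits (1.5 times for counts and covered shares, the 95% interval for class shares and median widths, 1 SD for GC content). The exceptions came from dropping the hotspots in the narrowest quartile of each list, which lowered the listed genes with a start site in a hotspot to 5 for Benzonase and 5 for Cyanase, from 8 each; for DNase I 8 of 10 remained marked. This alternative removes narrow hotspots by construction. The DNase I unique share ranged from 28.6% (windows of 5 kb) to 41.7% (without narrow hotspots), and the Benzonase-Cyanase unique share from 10.4% to 19.05%. No paired analysis was possible because the result comes from no test and each list pools its samples, and for the same reason no sample could be left out. Absence from a list says only that no hotspot was called there: depth, unique alignment and the calling threshold limit it.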
